A study of Mus musculus with 27 samples.

Results

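Interleukin-6 (IL-6) family cytokines and receptors were followed by 5 genes, Il6, Lif, Osm, Il6ra and Il6st, in bone marrow-derived macrophages (BMDM) that met a Toll-like receptor (TLR) ligand once or a second time. The genes were found by their names in the annotation of the array, which held 1 probe for each, so that 5 of the 55681 probes and 5 of the 24217 named genes with deposited values are described. All cultures came from female C57BL/6 mice aged 6 to 8 weeks, whose marrow was differentiated for 7 days in medium conditioned by L929 cells, a fibroblast line that secretes the macrophage growth factor CSF-1. Naïve cells received no ligand. Acute cells were stimulated for 4 h with LPS (a TLR4 ligand, 100 ng/ml), CpG DNA (TLR9, 100 µM by the sample labels, for which the methods give another concentration), Pam3CSK4 (TLR2, 100 ng/ml) or Poly(I:C) (TLR3, 10 µg/ml). Re-stimulated cells were held with the ligand for 24 h, washed, rested for 1 h and given the same ligand for 4 h again. The labels count 3 cultures in each of the 9 groups, and the question was whether a first exposure changes the response to the next one. Of the 27 arrays, 25 had deposited values, so LPS re-stimulated and Pam3CSK4 acute cells are represented by 2 arrays each and the other groups by 3. Replicates are described in one place as different mice and in another as pools of several mice, so a p-value measures the spread between these cultures. All cultures were a bulk of cells, and fewer cells of a type cannot be told apart from less RNA per cell.

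IL-6, leukemia inhibitory factor (LIF) and oncostatin M (OSM) are secreted cytokines that all signal through the shared receptor chain gp130, the product of Il6st. IL-6 first binds its own receptor chain, encoded by Il6ra, and the complex then brings gp130 chains together, which activates JAK kinases and the transcription factor STAT3. In macrophages, Il6 is a well known TLR-induced gene whose promoter carries sites for NF-κB, C/EBP, AP-1 and CREB proteins, and cells that express Il6ra can answer the cytokine they secrete.

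The probes were 60 bases long and lay, in mm9, at chr5:30346367-30346426 for Il6 (+ strand, NM_031168), chr11:4172032-4172091 for Lif (+, NM_008501), chr11:4140146-4140205 for Osm (+, NM_001013365), chr3:89674054-89674113 for Il6ra (-, NM_010559) and chr13:113296586-113296645 for Il6st (+, NM_010560). Il6 had 2 spots on each array and the others 1. The part of the transcript that each probe covers was not determined here. RefSeq promoters (GRCm38.p6) were at hand for 4 of the 5 genes, Il6, Lif, Il6ra and Il6st. The 250 bases before the start of Il6 and Il6ra are shown because these genes moved furthest and in opposite directions. Capitals mark motif matches on either strand. The Il6 stretch is chr5:30012864-30013113 on the + strand and the Il6ra stretch chr3:89913197-89913446 on the - strand.
Il6: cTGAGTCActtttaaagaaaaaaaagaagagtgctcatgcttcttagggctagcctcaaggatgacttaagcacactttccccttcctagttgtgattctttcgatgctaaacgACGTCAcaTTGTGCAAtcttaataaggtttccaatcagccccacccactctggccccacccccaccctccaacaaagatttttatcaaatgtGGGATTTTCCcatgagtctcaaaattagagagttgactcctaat
Il6ra: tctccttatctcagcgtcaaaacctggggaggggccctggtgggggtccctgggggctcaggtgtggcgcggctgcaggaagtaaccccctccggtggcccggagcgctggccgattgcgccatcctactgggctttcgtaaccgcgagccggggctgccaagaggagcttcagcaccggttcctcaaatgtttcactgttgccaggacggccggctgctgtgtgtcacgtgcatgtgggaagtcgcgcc

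The Il6 promoter held 1 match to each of 4 motifs, none of which overlapped another. The NF-κB consensus matched as GGGATTTTCC at bases -44 to -35 from the start, C/EBP (TTGNNCAA) as TTGTGCAA at -128 to -121, the core of a cAMP response element (TGACGT, read here from the other strand as ACGTCA) at -136 to -131, and AP-1 (TGANTCA) as TGAGTCA at -249 to -243. The same stretch of Lif held an NF-κB match, GGGACGCCCC, and an AP-1 match, TGACTCA, whereas Il6ra and Il6st held none. The STAT motif TTCNNNGAA was found in 0 of the 4 promoters. Of 32851 promoters of this length, 7.25% held the NF-κB consensus, 6.75% AP-1, 6.47% the cAMP response element core, 5.65% C/EBP and 7.02% the STAT motif. A match describes letters in this window and not a bound site.

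Macrophage markers were well above background on all 25 arrays (8 genes, log2 of summed intensity 18.8 to 19.5), as the label of the cells says. Apart from LPS acute, the groups lay on the same 3 slides, with a slide for every replicate number, and were scanned on 1 day. The LPS acute arrays used 3 separate slides with 2 other scan days and, by their file headers, another array design. In any comparison with them, ligand, stimulation or re-stimulation cannot be told apart from slide, whichever alternative is used. Replicates also differed in 8 markers of neutrophils and granulocyte precursors (Camp, Elane, Ltf, Ly6g, Mpo, Ngp, S100a8 and S100a9). On the 15 arrays of slides 1 and 2 their summed level was 15.8 to 18.1 with 7 or 8 markers detected. On 5 of the 7 arrays of slide 3 it was 12.4 to 12.9, and on the CpG and Pam3CSK4 re-stimulated arrays of that slide 15.0 and 15.8, with 4 or 5 markers detected. On the 3 LPS acute arrays it was 11.7 to 12.3 with 3 or 4 detected. The sums of 15.0 and 15.8 were mostly S100a8 (14.83 and 15.66). On those arrays Camp was at 10.79 and 10.45 and S100a9 at 5.65 and 5.93, and Ly6g, Mpo and Ngp were not above background. Elane, at 11.08 to 12.73 on all 25 arrays, made up much of the lowest sums. Ltf, the granule protein lactoferrin, was well above background on 15 of 15 arrays of slides 1 and 2 and on 0 of the other 10. On naïve replicate 3, also of slide 3, 74.6% of probes were well above background, against 42.1% to 54.3% on the other 24 arrays. Where leaving out slide 3 changed the call of a tested change or of a called difference, both values are given, and the Pam3CSK4 acute group is then a single array, assumed to vary like the others.

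Il6 had the widest range of the members. Its log2 intensities in naïve cells were 2.84, 2.47 and 3.55, and only the last was well above background. After acute LPS they were 16.11, 15.77 and 15.64, after CpG 13.90, 14.16 and 16.24, after Poly(I:C) 11.82, 11.60 and 13.05, and after Pam3CSK4 12.15 and 9.91. All 22 arrays of stimulated cells, acute or re-stimulated, lay above the highest naïve array, by more than 6 log2 units at the least. Ordered by group mean, Il6 was 15.84 ± 0.24 (SD) in LPS acute, 15.44 ± 0.46 in CpG re-stimulated, 14.76 ± 1.28 in CpG acute, 12.70 ± 0.71 in Pam3CSK4 re-stimulated, 12.16 ± 0.78 in Poly(I:C) acute, 11.65 ± 2.13 in Poly(I:C) re-stimulated, 11.05 ± 0.19 in LPS re-stimulated, 11.03 ± 1.59 in Pam3CSK4 acute and 2.95 ± 0.55 in naïve cells (n = 3, or 2 for LPS re-stimulated and Pam3CSK4 acute). The ranges of neighbours in this order overlapped, except between CpG acute and Pam3CSK4 re-stimulated and between Pam3CSK4 acute and naïve cells.

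**Figure D1:**
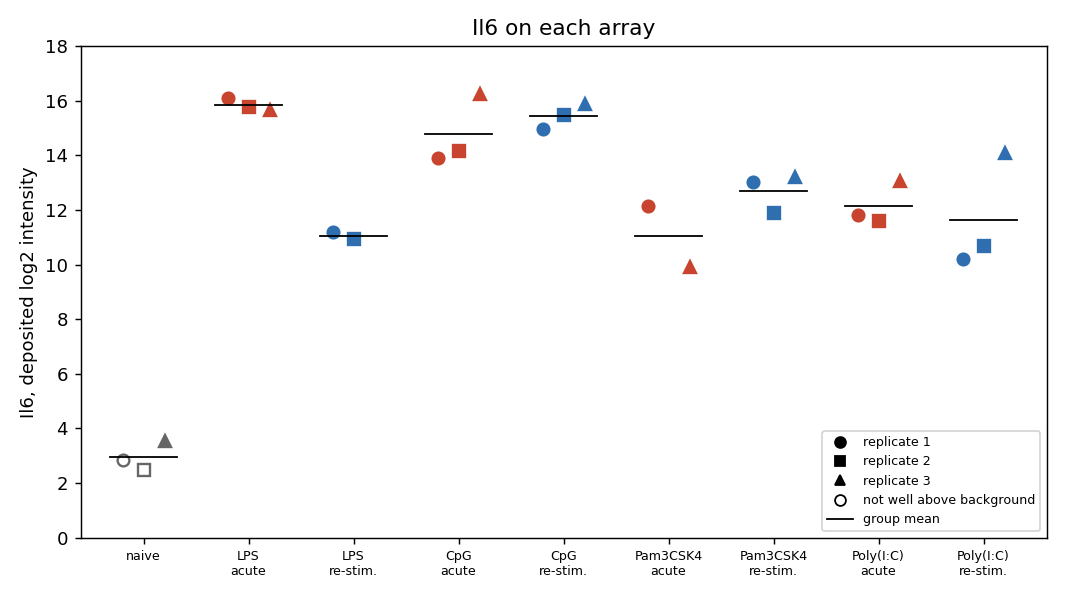
Deposited log2 intensity of Il6 on each of the 25 arrays, by group, with the group means as bars and marker shapes for the replicates. Naïve cultures sit between 2.47 and 3.55 and every stimulated culture at 9.91 or above, and LPS is the ligand whose re-stimulated arrays (10.92 and 11.19) lie wholly below its acute arrays (15.64 to 16.11).

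Against naïve cells, Il6 rose by 12.89 log2 units after acute LPS (SE 0.32, 95% interval 12.12 to 13.66, adjusted p = 0.000102, limma), which is 7573-fold. With CpG it rose by 11.81 (SE 0.67, adjusted p = 0.00236), and with Poly(I:C) by 9.20 (SE 0.47, adjusted p = 0.00135). Pam3CSK4 gave a change of 8.08 (SE 0.74, 95% interval 6.16 to 9.99) that did not pass the test with 2 arrays (adjusted p = 0.288), although both arrays lay above all naïve arrays. Without slide 3, where Pam3CSK4 acute is 1 array, it was 9.50 (adjusted p = 0.0166), and without naïve replicate 3 alone 8.38 (adjusted p = 0.0351). Here and below a gene is called when the adjusted p over all probes tested is under 0.05 and the change at least 1.5-fold. Called after LPS were 2 members, Il6 and Il6ra, against 26.5% of all 29933 probes tested, and the same 2 after CpG (5.72% of probes) and Poly(I:C) (6.03%). For Pam3CSK4, 0 members and 0% of 27843 probes were called by limma, where 3458 had an unadjusted p under 0.05. With 1 fit of all 9 groups, Il6 and Il6ra were called for Pam3CSK4 too (adjusted p = 9.43e-05 and 0.00312), and with slide as a random block 2650 probes were. Il6 passed the filter on dim probes through the stimulated group alone, so its passing is no support for a difference. Because the naïve signal is close to background, the size of its change depends on how background is handled, and over the alternatives tried the LPS change ranged from 9.68 to 13.19.

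On re-stimulation Il6 fell with LPS, and its changes with the other 3 ligands were not called. LPS re-stimulated arrays read 11.19 and 10.92 for Il6, below all acute arrays. The fall by 4.79 log2 units (SE 0.23, 95% interval -5.35 to -4.23, adjusted p = 0.000214, 27.6-fold) was called under all 15 alternatives. The acute LPS arrays lay on other slides, so these alternatives cannot separate re-stimulation from slide. With CpG, Il6 was 14.95, 15.48 and 15.87 on re-stimulation, inside the range of the acute arrays (change 0.67, 95% interval -0.83 to 2.17, adjusted p = 0.584). With Pam3CSK4 it was 13.01, 11.89 and 13.20 (change 1.67, -0.17 to 3.50, adjusted p = 0.404), and with Poly(I:C) 10.19, 10.66 and 14.09 (change -0.51, -3.04 to 2.02, adjusted p = 0.787). These intervals hold changes in both directions. Without CpG acute replicate 3, the array with the highest Il6 after CpG, the CpG change was 1.41 (adjusted p = 0.0494), and without slide 3 it was 1.19 (adjusted p = 0.0673).

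Called between re-stimulated and acute cells were 3 members for LPS, Il6, Osm and Il6ra, where 34.2% of all probes were called, and 0 for CpG (3.56% of probes), 0 for Pam3CSK4 (0% of 25430, with 3461 at an unadjusted p under 0.05 and 1862 called with slide as a random block) and 0 for Poly(I:C) (4.93%). On the 8 slide pairs of the other ligands, the Il6 difference between the re-stimulated and the acute array of a slide ran from -1.63 to 3.29, and 3 of 8 were negative. For Poly(I:C) it was -1.63 and -0.93 on slides 1 and 2 and 1.04 on slide 3. Without slide 3 the Poly(I:C) change was -1.28 (adjusted p = 0.0257). Neutrophil markers summed to 15.9 on both LPS re-stimulated arrays and to 11.7 to 12.3 on the LPS acute arrays, and their part in the LPS changes was not tested.

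The difference between ligands was tested in 1 fit of all 9 groups, for 6 ligand pairs. The Il6 change on re-stimulation with LPS was lower than that with CpG by 5.46 log2 units (difference -5.46, SE 1.22, adjusted p = 0.0172, 6.35% of probes called) and lower than that with Pam3CSK4 (-6.45, SE 1.29, adjusted p = 0.00872, 7.2% called). Against Poly(I:C) the difference was -4.28 (95% interval -6.84 to -1.71, adjusted p = 0.0587, 3.61% called) and missed the threshold. In the acute response, Il6 was higher after LPS than after Poly(I:C) (3.68, SE 0.82, adjusted p = 0.00731, 11.3% called) and than after Pam3CSK4 (4.81, SE 0.91, adjusted p = 0.00119, 18.4% called), and the difference from CpG was 1.08 (SE 0.82, adjusted p = 0.407, 16.8% called). All of these include the LPS acute arrays on their own slides. Among re-stimulated cells, which shared slides, Il6 was higher after CpG than after Poly(I:C) (3.79, SE 0.82, adjusted p = 0.00806, 7.08% called), and LPS minus CpG was -4.38 (SE 0.91, adjusted p = 0.114, 0.0227% called). These contrasts of re-stimulated levels were added after the values were seen.

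Re-stimulated cells stayed far above naïve cells in Il6 with every ligand. The rise was 12.48 for CpG (SE 0.36, adjusted p = 0.000387), 9.75 for Pam3CSK4 (SE 0.45, adjusted p = 0.00443), 8.69 for Poly(I:C) (SE 1.04, adjusted p = 0.0115) and 8.10 for LPS (SE 0.37, adjusted p = 0.00796). On the 11 slide pairs the difference was 7.35 to 13.02 and always positive. Members called against naïve cells were 2 for LPS (Il6 and Osm, 5.66% of probes called), 2 for CpG (Il6 and Il6ra, 13.1%), 1 for Pam3CSK4 (Il6, 5.36%) and 2 for Poly(I:C) (Il6 and Il6ra, 9.03%). Without LPS re-stimulated replicate 1 or 2, which leaves 1 array assumed to vary like the naïve ones, the LPS rise was 7.97 and 8.24 with an adjusted p of 0.115 and 0.157. Without naïve replicate 2 the adjusted p for Poly(I:C) was 0.0515.

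Lif, which maintains mouse stem cells in culture and acts on many tissues, was not measurable in these cells. It was well above background on 2 of 25 arrays, naïve replicate 3 and Pam3CSK4 acute replicate 1, and its log2 intensity lay between 1.88 and 4.97 everywhere. Naïve arrays read 1.88, 2.14 and 4.94, which spans nearly the range of all stimulated arrays. It passed the filter in 0 of 12 comparisons and was not tested. A level below background limits the signal and does not show that the transcript is absent.

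Osm encodes oncostatin M, a cytokine made by activated macrophages and neutrophils. It was above background on all 25 arrays and read 7.21, 7.27 and 6.62 in naïve cells. Acute values were 7.70, 7.78 and 7.94 for LPS, 7.43, 7.65 and 7.56 for CpG, 7.60, 7.23 and 6.63 for Poly(I:C), and 7.36 and 7.02 for Pam3CSK4. LPS and CpG arrays lay above all naïve arrays, but by less than 1 log2 unit, and 0 of 4 acute changes were called (0.77 for LPS, adjusted p = 0.0554, down to 0.12 for Poly(I:C), adjusted p = 0.855). Where the change was smallest its sign was not stable: the Pam3CSK4 and Poly(I:C) changes turned to -0.12 and -0.045 when arrays were scaled on the 75th percentile.

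Re-stimulated cells held more Osm than acute cells on 8 of 8 slide pairs. LPS re-stimulated arrays read 8.73 and 9.24, above all LPS acute arrays, a rise by 1.18 (SE 0.23, adjusted p = 0.0118). This call was lost under 3 of 15 alternatives. With all 27 arrays, including the LPS re-stimulated array that has no deposited values, the change was 0.14 (adjusted p = 0.931). It was 0.93 without LPS re-stimulated replicate 2 (adjusted p = 0.0763) and 1.11 with slide as a random block (adjusted p = 0.0549). Poly(I:C) re-stimulated arrays read 9.74, 9.87 and 8.14, the highest group mean at 9.25 ± 0.96 (SD, n = 3), and did not overlap acute or naïve arrays. The change from acute Poly(I:C) cells was 2.10 (SE 0.52, adjusted p = 0.0691), called with the replicate number as a block (adjusted p = 0.0396), and without slide 3 it was 2.39 (adjusted p = 0.00892). CpG re-stimulated arrays were 7.77, 7.88 and 8.14 (change from acute 0.38, adjusted p = 0.277) and Pam3CSK4 re-stimulated arrays 7.88, 7.13 and 8.21 (0.54, adjusted p = 0.571).

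Against naïve cells, Osm on re-stimulation was higher by 1.96 for LPS (SE 0.31, adjusted p = 0.0384). This call held under 8 of 15 alternatives, over which the change ran from 0.89 with all 27 arrays (adjusted p = 0.717) to 2.25 with median scaling (adjusted p = 0.0527). It was also lost with no filter on dim probes (adjusted p = 0.0869), without naïve replicate 1 (adjusted p = 0.106) or 2 (adjusted p = 0.104), and without LPS re-stimulated replicate 1 (adjusted p = 0.165) or 2 (adjusted p = 0.268). For Poly(I:C) the change was 2.22 (SE 0.51, adjusted p = 0.0502), with the replicate block an adjusted p of 0.0434 and without slide 3 a change of 2.57 (adjusted p = 0.00163). For CpG it was 0.90 (adjusted p = 0.0585) and for Pam3CSK4 0.71 (adjusted p = 0.258). Among re-stimulated cells Osm was lower with CpG than with Poly(I:C) (-1.32, SE 0.37, adjusted p = 0.0353) and lower with Pam3CSK4 than with Poly(I:C) (-1.51, SE 0.37, adjusted p = 0.0121, 10.6% of probes called). The first call held under 26 of 34 alternatives and the second under 30. With CpG it was lost with median scaling (adjusted p = 0.218), no filter on dim probes (adjusted p = 0.0640), all 27 arrays and each CpG re-stimulated array left out in turn, and with either ligand without Poly(I:C) re-stimulated replicate 1 or 2. With Pam3CSK4 it was also lost with all 27 arrays (adjusted p = 0.744) and without Pam3CSK4 re-stimulated replicate 2 (adjusted p = 0.0778). The Poly(I:C) re-stimulated array lowest in Osm, replicate 3, was also low in neutrophil markers (12.9, against 16.1 and 17.1 on the other two), and their part in this spread was not tested.

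**Figure D2:**
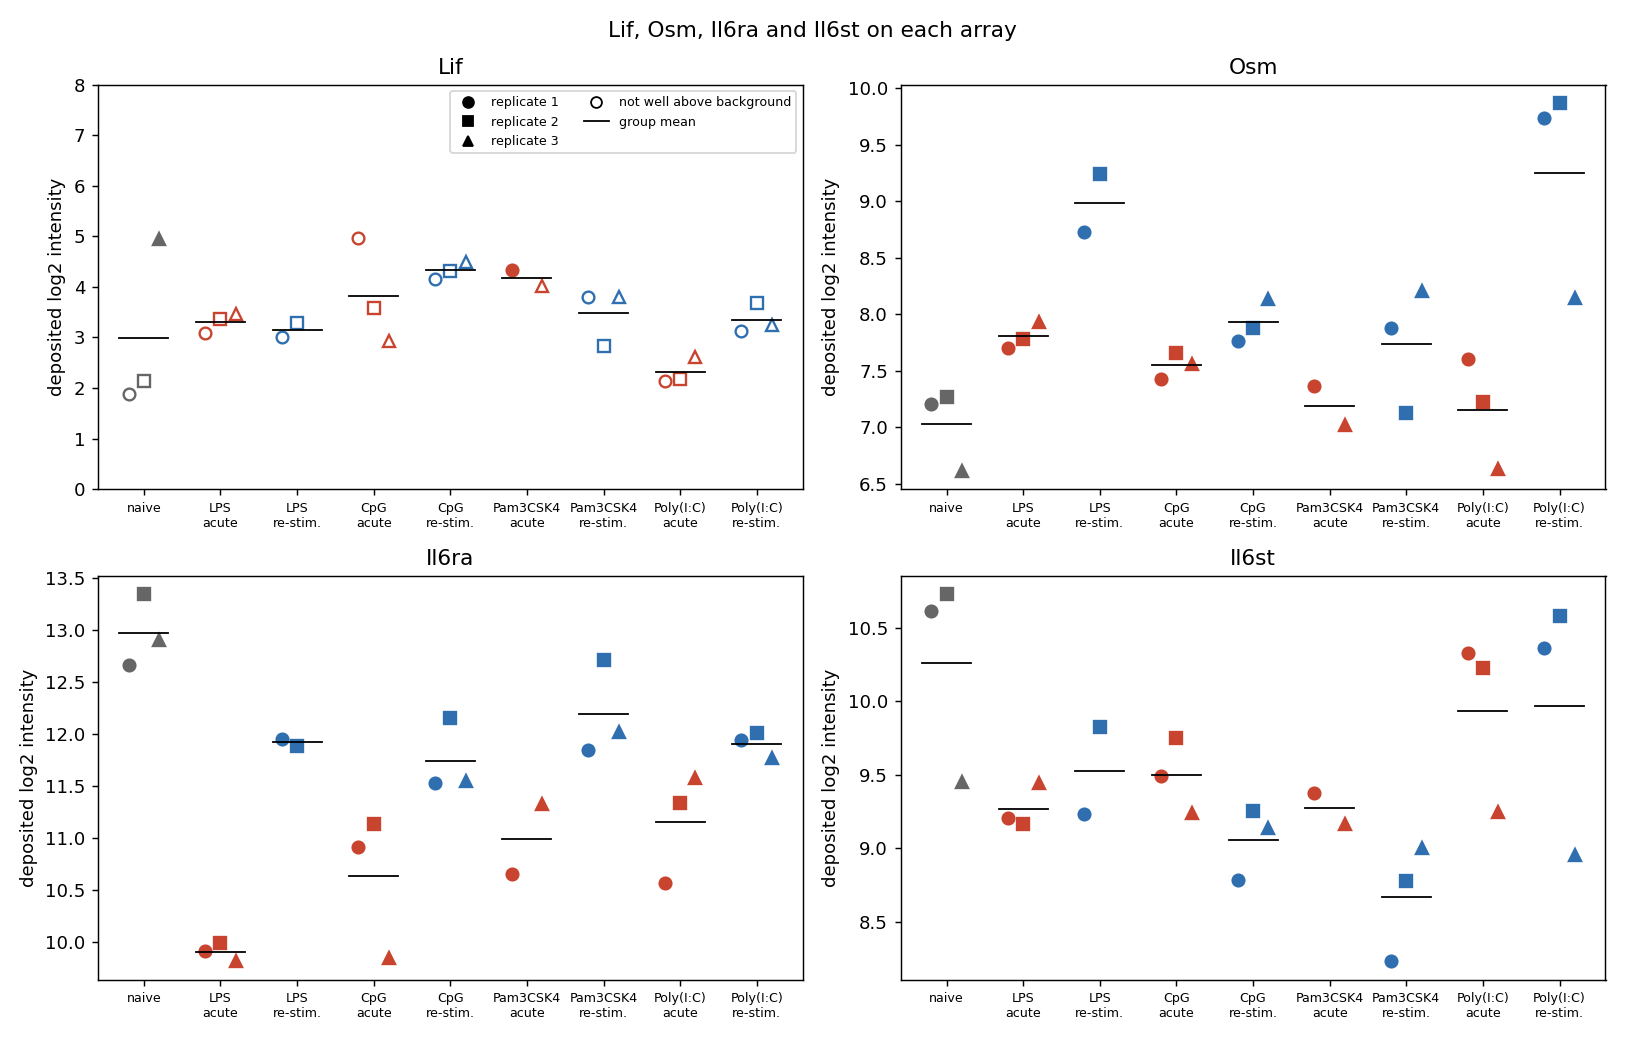
Deposited log2 intensity of Lif, Osm, Il6ra and Il6st on each of the 25 arrays, by group, with the group means as bars and marker shapes for the replicates. Lif stays between 1.88 and 4.97, Osm is highest in Poly(I:C) and LPS re-stimulated cells, Il6ra is highest in naïve cells (12.66 to 13.34), and naïve replicate 3 has the lowest naïve Il6st (9.45 against 10.61 and 10.73).

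Il6ra encodes the receptor chain that binds IL-6, and it was lower in stimulated cells. Naïve arrays read 12.66, 13.34 and 12.90. Acute LPS arrays read 9.91, 10.00 and 9.82, CpG arrays 10.92, 11.13 and 9.85, Poly(I:C) arrays 10.57, 11.33 and 11.57, and Pam3CSK4 arrays 10.66 and 11.32, so that no acute array overlapped the naïve ones. Il6ra fell by 3.06 after LPS (SE 0.23, adjusted p = 0.000787, 8.31-fold), by 1.81 after Poly(I:C) (SE 0.33, adjusted p = 0.0364, 3.50-fold) and by 2.33 after CpG (SE 0.39, adjusted p = 0.0309, 5.04-fold). The Pam3CSK4 change was -1.97 (SE 0.33, adjusted p = 0.288), and without slide 3, with 1 Pam3CSK4 array left, -2.34 (adjusted p = 0.0485). On the 8 slide pairs of CpG, Pam3CSK4 and Poly(I:C) the change was -3.05 to -1.32. The CpG and Poly(I:C) calls each held under 9 of 16 alternatives. With the replicate block the CpG adjusted p was 0.0566. Median scaling, which moved the median of all tested probes by 0.11 to 0.78 in the 12 comparisons, gave -1.55 for CpG (adjusted p = 0.248) and -1.23 for Poly(I:C) (adjusted p = 0.475). The LPS call held under 16 of 16, none of which separates stimulation from slide.

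In re-stimulated cells Il6ra lay between the naïve and the acute level. Its values were 11.95 and 11.89 for LPS, 11.53, 12.15 and 11.55 for CpG, 11.84, 12.71 and 12.02 for Pam3CSK4, and 11.94, 12 and 11.77 for Poly(I:C). These groups overlapped no acute group of their own ligand, and of all 22 stimulated arrays 21 lay below the lowest naïve array, the exception being Pam3CSK4 re-stimulated replicate 2. Against acute cells Il6ra rose by 2.01 for LPS (SE 0.19, adjusted p = 0.00117), a call kept under all 15 alternatives, none of which separates re-stimulation from slide. The changes for Poly(I:C) (0.75, adjusted p = 0.167), CpG (1.11, adjusted p = 0.158) and Pam3CSK4 (1.20, adjusted p = 0.265) were positive on 8 of 8 slide pairs but were not called. Against naïve cells Il6ra fell by 1.22 for CpG (SE 0.27, adjusted p = 0.0374) and by 1.06 for Poly(I:C) (SE 0.23, adjusted p = 0.0434), and was -1.05 for LPS (adjusted p = 0.0857) and -0.78 for Pam3CSK4 (adjusted p = 0.187). The CpG and Poly(I:C) calls held under 7 of 16 alternatives each, and the changes were -0.04 and -0.16 under median scaling. With the replicate block the Poly(I:C) adjusted p was 0.0661, and without slide 3 that of CpG was 0.0615 and that of LPS 0.0443.

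The acute Il6ra level was lower after LPS than after Poly(I:C) (-1.25, SE 0.33, adjusted p = 0.0188) and after Pam3CSK4 (-1.08, SE 0.36, adjusted p = 0.0454). The second of these was -0.75 without slide 3 (adjusted p = 0.206, 1 Pam3CSK4 array). Both compare LPS arrays with arrays of other slides.

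Il6st encodes gp130, the signalling chain of the whole family. It read 10.61, 10.73 and 9.45 in naïve cells, 9.21, 9.16 and 9.44 after acute LPS, 9.50, 9.75 and 9.24 after CpG, 9.38 and 9.17 after Pam3CSK4 and 10.33, 10.23 and 9.24 after Poly(I:C). On re-stimulation it read 9.23 and 9.82 for LPS, 8.78, 9.25 and 9.14 for CpG, 8.23, 8.78 and 9.01 for Pam3CSK4 and 10.36, 10.58 and 8.96 for Poly(I:C). Naïve replicates 1 and 2 were the highest of all, and every array of slide 3 lay between 8.96 and 9.45. No change of Il6st was called in 12 comparisons. It was negative on all 19 slide pairs against naïve cells, but these pairs share 3 naïve arrays and are not independent. On slides 1 and 2 the sign followed from the naïve arrays being the highest of all. The largest changes were -1.59 for re-stimulated Pam3CSK4 cells against naïve (SE 0.41, adjusted p = 0.0782), -1.21 for re-stimulated CpG cells (SE 0.38, adjusted p = 0.0880) and -0.99 for acute LPS (SE 0.37, adjusted p = 0.0934).

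Calls for Il6st depended on the arrays and on the model. Without slide 3 Il6st fell against naïve cells by 1.40 after acute LPS (adjusted p = 0.00268), by 1.05 after acute CpG (adjusted p = 0.0267), and on re-stimulation by 1.14 for LPS (adjusted p = 0.0320), by 1.65 for CpG (adjusted p = 0.00939) and by 2.17 for Pam3CSK4 (adjusted p = 0.00908). The same 5 changes were called without naïve replicate 3 alone. With slide 3 kept, re-stimulated CpG and Pam3CSK4 cells were called against naïve with normexp (adjusted p = 0.0422 and 0.0365), in 1 fit of 9 groups (adjusted p = 0.0353 and 0.00923) and with slide as a random block (adjusted p = 0.0116 and 0.00213), and acute LPS cells with the random block (adjusted p = 0.0482). Within slide 3 the changes from naïve were -0.21 for acute CpG, -0.31 for re-stimulated CpG and -0.44 for re-stimulated Pam3CSK4, where slides 1 and 2 gave -1.12 and -0.98, -1.83 and -1.48, and -2.38 and -1.95. LPS acute arrays (9.16 to 9.44) lay just below naïve replicate 3 (9.45), the naïve array that like them was low in neutrophil markers. Whether those markers have a part in the Il6st level was not tested. Among re-stimulated cells Il6st was lower with Pam3CSK4 than with Poly(I:C) (-1.30, SE 0.40, adjusted p = 0.0419), a difference that held under 21 of 34 alternatives.

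**Figure D3:**
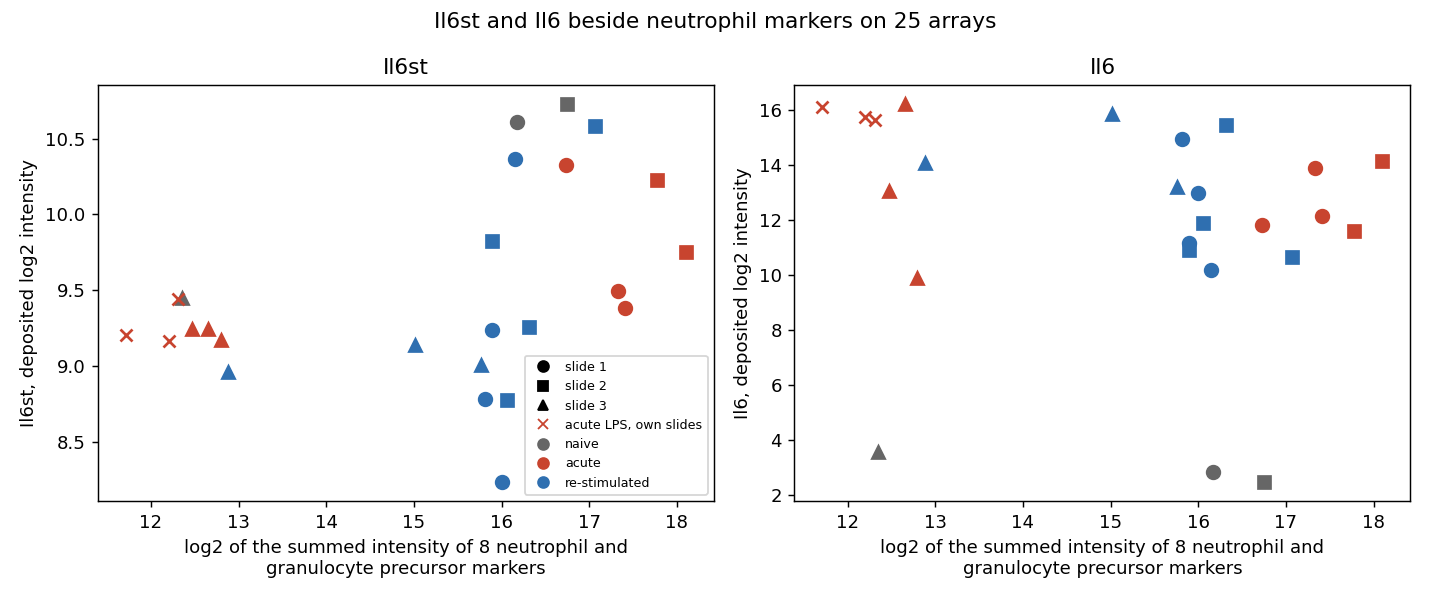
Log2 intensity of Il6st and Il6 on the 25 arrays against the log2 of the summed intensity of 8 neutrophil and granulocyte precursor markers. Colours mark naïve, acute and re-stimulated arrays, shapes mark slides 1 to 3, and a cross marks the acute LPS arrays on their own slides. Naïve replicates 1 and 2 (16.2 and 16.8 in markers) stand at 10.61 and 10.73 in Il6st and naïve replicate 3 (12.4) at 9.45, and in the Il6 panel the naïve arrays lie between 2.47 and 3.55.

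**Figure D4:**
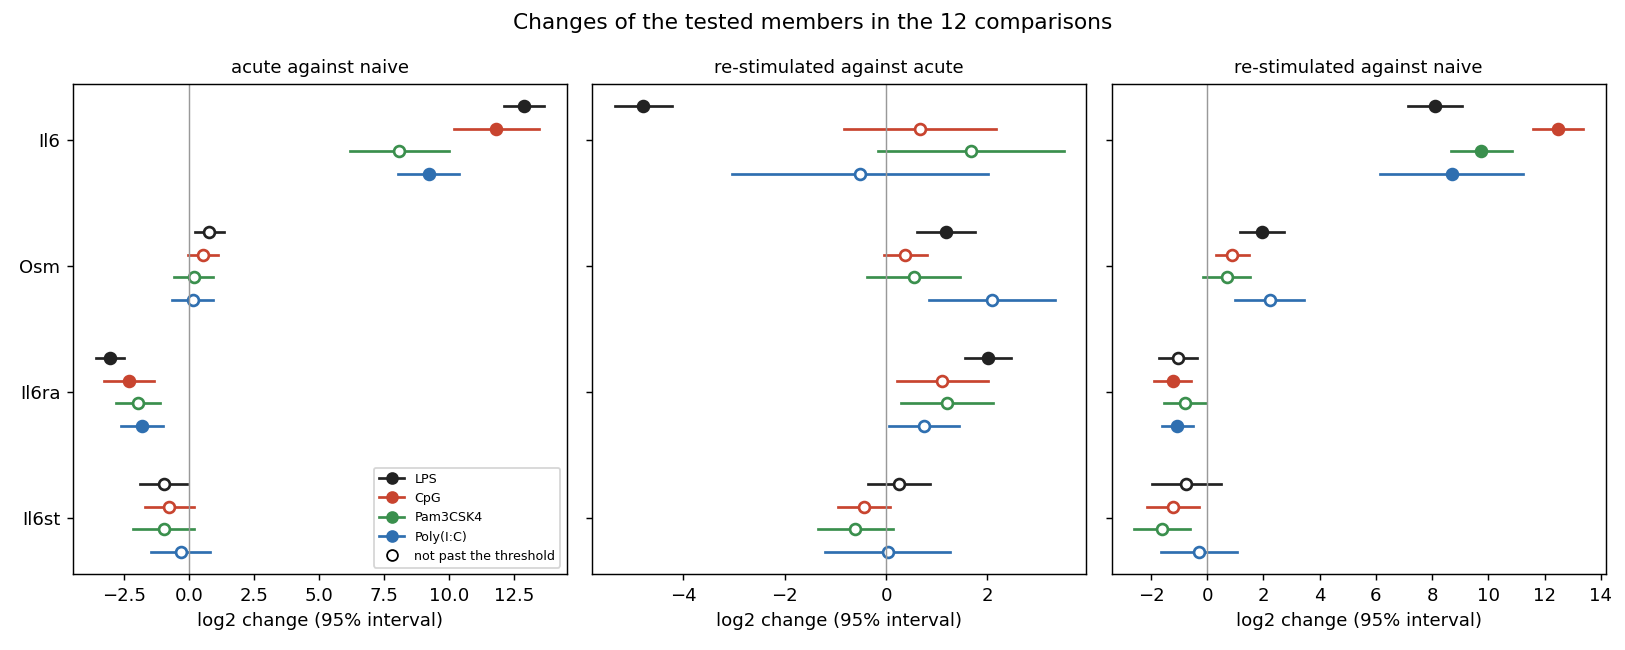
Log2 change and 95% interval of the 4 tested members in the 12 comparisons, 1 colour for each ligand, with filled points for called changes. Il6 lies at 8.08 or above against naïve cells and at -4.79 for LPS re-stimulated against acute, Il6ra is negative against naïve cells, and no Il6st point is filled.

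Over the 25 arrays, which share slides, depth of signal and treatment, Pearson's r between Il6 and Il6ra was -0.713 and between Il6 and Il6st -0.578. The named genes most like Il6 among 15754 were Dusp16 (r = 0.928), Gpd2 (0.923), Ptgs2 (0.917), which encodes cyclooxygenase-2, and Rnf24 (0.907). For Il6ra they were Agbl3 (0.927), Sash3 (0.925), Vgll4 (0.923) and Camk2g (0.917). For Osm they were H2-M9 (0.925), Grina (0.921), Orm2 (0.919), an acute phase protein, and Naip2 (0.917), and for Il6st they were Tst (0.903), Lrrc14b (0.897), Naglu (0.896) and Il7r (0.887). Lif, mostly below background, reached 0.742 with Sh3bp4, 0.736 with Lpar4, 0.724 with Dtx2 and 0.721 with D17H6S53E.

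Other genes of the pathway were read from 7 lists. Most of those named were chosen for the highest or lowest mean acute change in their list. Their large acute changes follow from that choice, and so in part do their changes on re-stimulation, which use the same acute arrays. Over all probes tested, 13.2% were called higher and 13.2% lower after acute LPS, 3.09% and 2.63% after CpG, 3.8% and 2.23% after Poly(I:C), and 0% either way after Pam3CSK4. On re-stimulation these shares were 17.2% and 17% with LPS, 1.85% and 1.71% with CpG and 2.31% and 2.62% with Poly(I:C), and the counts below stand against them. Of 8 further family ligands, 4 rose after acute LPS and 0 fell among 7 tested (median 0.92, against -0.01 over all probes tested), 2 rose after CpG and 1 after Poly(I:C). Il27, the p28 subunit of the family cytokine IL-27, rose by 4.15 with LPS (adjusted p = 0.000468), 3.52 with CpG (adjusted p = 0.00269) and 3.16 with Poly(I:C) (adjusted p = 0.0239). On re-stimulation it fell from the acute level by 3.64 with LPS and 2.20 with CpG, and its changes with Pam3CSK4 and Poly(I:C) were -1.44 and -1.85. Clcf1, cardiotrophin-like cytokine, rose by 2.57 with acute LPS and 3.01 with acute CpG, and fell by 1.45 and 2.27 on re-stimulation. In LPS re-stimulated cells 4 of 7 tested ligands fell, Il27, Clcf1, Cntf and Ebi3, and 1, Ctf2, rose by 0.65 (median -1.36). The names in this count other than Il27, Clcf1, Cntf and Ctf2 were given after their values were seen. Ctf2 lay near background, with a mean of 4.23 in acute LPS cells (2 of 3 arrays above background) and 4.88 in re-stimulated ones.

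Of the 5 other receptor chains, Osmr, the oncostatin M receptor chain, was above background on none of the 25 arrays (group means 1.73 to 2.49), and Lifr, which pairs with gp130 for LIF, gave acute changes of -1.13 to 0.00 with no call. Il11ra1, the IL-11 binding chain, fell by 1.15 after acute LPS (adjusted p = 0.0176) and was lower than naïve in all 4 re-stimulated groups, by 1.40 for Poly(I:C), 1.52 for Pam3CSK4, 1.86 for CpG and 1.99 for LPS. Il27ra, the gp130 partner for IL-27, was not well above background on either LPS re-stimulated array. Its mean there was 2.67, against 5.22 in acute LPS cells (change -2.55, adjusted p = 0.00290, limma). The size of this fall is uncertain, because the lower signal is within background. Cntfr, the ciliary neurotrophic factor receptor, was tested only for Poly(I:C), where it rose by 5.28 in acute (adjusted p = 0.0110) and 4.54 in re-stimulated cells (adjusted p = 0.0193). It passed the filter on dim probes through the Poly(I:C) groups alone, with 1 of 3 naïve arrays above background, so its passing is no support for a difference. Its mean was 8.19 in acute and 7.45 in re-stimulated Poly(I:C) cells and 2.64 to 4.46 elsewhere, and it was named after these values were seen.

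Of 8 feedback inhibitors of gp130 signalling, 4 rose and 1 fell after acute LPS (median 1.05), 3 rose and 0 fell after CpG and after Poly(I:C), and 0 were called for Pam3CSK4. Socs3, which binds gp130 and blocks its kinases, rose by 5.66 with LPS (adjusted p = 0.00999), 7.50 with CpG (adjusted p = 0.0239) and 4.96 with Poly(I:C) (adjusted p = 0.0495), and changed by 5.84 with Pam3CSK4 (adjusted p = 0.288). From acute to re-stimulated cells its changes were 0.43, -0.49, -0.81 and 0.23 for LPS, CpG, Poly(I:C) and Pam3CSK4, none called. Socs1, an inhibitor of JAK kinases, rose by 5.96 with LPS, 4.63 with CpG and 6.69 with Poly(I:C). It fell by 2.68 on LPS re-stimulation (adjusted p = 0.00200) and its Poly(I:C) change was -3.32 (adjusted p = 0.0582). Pias3, an inhibitor of STAT3, fell by 1.36 after acute LPS and rose by 1.42 on re-stimulation, and Socs2 rose by 1.45 there. In acute LPS cells Socs2 lay near background, with a mean of 4.02 and 2 of 3 arrays above background.

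Of 13 signal transduction genes, 4 rose and 1 fell after acute LPS (median 0.82), and after CpG and Poly(I:C) only Jak2 was called. Jak2, a kinase bound to gp130, rose by 2.93 with LPS, 2.85 with CpG and 2.46 with Poly(I:C), and its change with Pam3CSK4 was 1.95. It kept this level on re-stimulation, 2.26 to 3.07 above naïve and called in all 4 groups (adjusted p = 0.00472 to 0.0186), with changes from acute cells of -0.25 to 0.31. Stat3 rose by 1.75 after acute LPS (adjusted p = 0.00478) and fell by 1.46 on LPS re-stimulation (adjusted p = 0.00570), while its acute changes with the other ligands were 0.13 to 0.78 and not called. Grb2, an adaptor, fell by 1.05 with acute LPS, and Gab2 was not called in any acute comparison.

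The STAT3 target list split. After acute LPS 6 of 21 rose and 5 fell (median -0.15), after CpG 5 rose and 1 fell, and after Poly(I:C) 2 rose and 1 fell. Saa3, an acute phase serum amyloid, rose by 3.79 with acute LPS and 6.03 with acute CpG and rose further on re-stimulation, by 3.91 with LPS (adjusted p = 0.00247), 1.57 with CpG (adjusted p = 0.0445) and 4.87 with Poly(I:C) (adjusted p = 0.0209). In re-stimulated cells it stood 6.90 to 7.70 above naïve with all 4 ligands, each called. In the LPS, CpG and Pam3CSK4 re-stimulated groups Saa3 had an SD of 0 (means 18.82, 18.72 and 18.72), since quantile normalization gives the top-ranked probes of every array the same value, and its changes there are bounded by that value. Icam1, an adhesion molecule, rose by 3.76 with LPS and 3.73 with CpG and fell by 1.58 and 2.06 on re-stimulation. Ccnd1, cyclin D1, fell by 1.08 and 1.53 with acute LPS and CpG, and Fos fell by 1.82 with LPS. On LPS re-stimulation 9 of 21 rose and 7 fell. The risers include Lcn2 (6.71) and Hp (6.52), named after their values were seen, which are also granulocyte genes. These arrays differed in neutrophil markers as given above, and the part of those markers in the rises was not tested.

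Genes that act on Il6 transcription and on the life of its mRNA also moved in both directions. Of 15 tested, 7 rose and 2 fell after acute LPS (median 1.55), 2 rose and 1 fell after CpG, and 2 rose and 2 fell after Poly(I:C). On LPS re-stimulation 2 rose and 9 fell (median -1.13, against -0.02 over all probes), whereas 0 rose and 1 fell with CpG and 1 rose and 1 fell with Poly(I:C). Arid5a, which stabilises Il6 mRNA, rose by 4.52 with LPS (adjusted p = 0.000196) and 5.06 with Poly(I:C) (adjusted p = 0.00109), and fell by 3.54 and 3.22 on re-stimulation. Its changes with acute CpG and Pam3CSK4 were 2.17 and -0.31. Nfkbiz, the NF-κB cofactor IκBζ, changed by 1.93 to 4.66 in acute cells without a call and fell by 3.23 on LPS re-stimulation. Zfp36l1, which promotes the decay of AU-rich mRNAs, changed by -4.23 with LPS, -2.75 with CpG and -2.82 with Poly(I:C), each called, and rose by 2.34 on LPS re-stimulation. Cebpb, a C/EBP factor first described at the IL6 promoter, fell by 1.06 with acute LPS and 0.87 with acute Poly(I:C), and rose by 2.56 and 1.72 on re-stimulation.

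**Figure D5:**
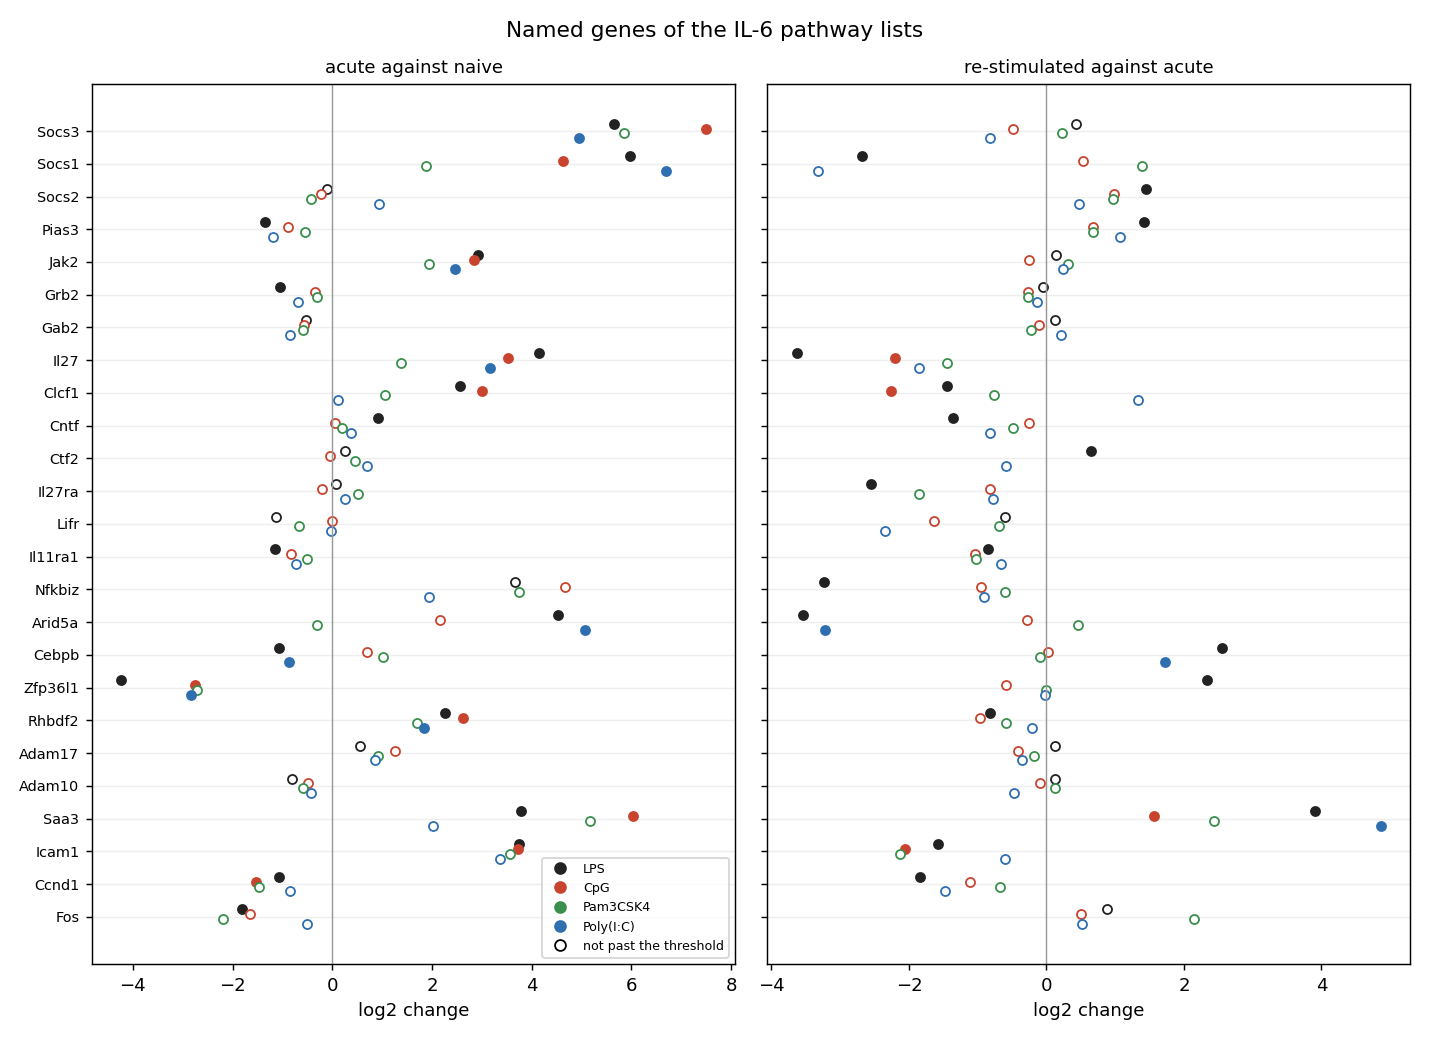
Log2 change of 25 named pathway genes after acute stimulation (against naïve) and after re-stimulation (against acute), with a colour for each ligand and open points for changes not past the threshold. The genes were chosen for the highest or lowest mean acute change in their list, so the outer positions after acute stimulation follow from that choice. Socs3 (up to 7.50), Socs1 (6.69) and Saa3 (6.03) lie furthest right after acute stimulation and Zfp36l1 furthest left, and on re-stimulation Saa3 lies right while Il27, Arid5a and Nfkbiz lie left with LPS.

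Of the genes of receptor shedding, by which soluble IL-6 receptor is released, Adam17 and Adam10, the proteases that cut it, were called in none of the comparisons. Rhbdf2, which brings ADAM17 to the cell surface, rose by 2.26 with LPS (adjusted p = 0.00341), 2.63 with CpG (adjusted p = 0.0104) and 1.84 with Poly(I:C) (adjusted p = 0.0189), and changed by 1.69 with Pam3CSK4. On LPS re-stimulation it fell by 0.83 (adjusted p = 0.0345).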

How the data were processed

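Cy3-labelled RNA of each culture was hybridised to a 1-colour Agilent array of 62976 spots. The authors deposited the scanner intensities of each array and a table of log2 values for 25 of 27 arrays, made with limma by RMA background correction and quantile normalization. The other 2 arrays, which per the labels failed quality control, were not used, except in the alternative with all 27. Deposited log2 values were taken as they are. The same steps rebuilt from the intensities differed by a median of 0.0355. R 4.3.3 with limma 3.58.1 was used. For each comparison lmFit and eBayes ran, two-sided, on every probe that 2 or more arrays of one of its groups showed well above background, with Benjamini-Hochberg adjustment over all of them. The scripts were tested on simulated data. Precision is limited by the 2 or 3 arrays a group. The members and gene lists were chosen with earlier results of these data known.

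Each member is represented by its only probe. Named pathway genes are, in each of 7 lists, the 2 genes with the highest and the 2 with the lowest mean acute change, and Lifr, Osmr, Il11ra1, Stat3 and Socs3, and beside each member the 4 genes with the highest correlation. 1 named pathway gene is not reported here. Replicate numbers come from the labels and match slides. After subtraction of the group means, arrays with the same number correlated at 0.10 to 0.52 without LPS groups, every pair over 0.1. Number and slide coincide there, so paired cultures cannot be told apart from shared slides. In comparisons with LPS groups the correlation was 0.01 to 0.10, where LPS acute shared no slide and LPS re-stimulated had 2 arrays. The fits are unpaired, with the replicate number as a block tried as an alternative beside other scalings, filters, models and each array left out.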

Additional observations from a re-analysis of the deposited data

Results flagged for a closer look

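Differences between ligands were called for 10 contrasts of the members, all from the fit of 9 groups by limma. The 6 ligand pairs were each tested for change, acute level and re-stimulated level, with p adjusted within each contrast. Over all probes, 6.35% were called for change in LPS minus CpG and 7.2% in LPS minus Pam3CSK4. For acute level 11.3% were called in LPS minus Poly(I:C) and 18.4% in LPS minus Pam3CSK4. For re-stimulated level 7.08% were called in CpG minus Poly(I:C) and 10.6% in Pam3CSK4 minus Poly(I:C). The Il6 change on re-stimulation was lower with LPS than with CpG (-5.46, adjusted p = 0.0172) and than with Pam3CSK4 (-6.45, adjusted p = 0.00872). Acute Il6 was higher with LPS than with Poly(I:C) (3.68, adjusted p = 0.00731) and than with Pam3CSK4 (4.81, adjusted p = 0.00119), and acute Il6ra lower (-1.25, adjusted p = 0.0188, and -1.08, adjusted p = 0.0454). In re-stimulated cells Il6 was higher with CpG than with Poly(I:C) (3.79, adjusted p = 0.00806), Osm lower with CpG (-1.32, adjusted p = 0.0353) and with Pam3CSK4 (-1.51, adjusted p = 0.0121) than with Poly(I:C), and Il6st lower with Pam3CSK4 than with Poly(I:C) (-1.30, adjusted p = 0.0419). LPS acute arrays had slides of their own, so in the 6 contrasts that use them ligand and slide cannot be told apart.

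The arrays without deposited values, rebuilt from their intensities, held member signals above and below the rebuilt naïve range. On LPS re-stimulated replicate 3 Il6 was 13.0 (naïve 2.74 to 3.81) and Lif 8.39 (naïve 2.13 to 5.19). On Pam3CSK4 acute replicate 2 Il6 was 9.02, Lif 12.1 on a spot marked as non-uniform or as an outlier by the scanner software, and Il6ra 14.0 (naïve 12.66 to 13.33). Osm and Il6st were low on both, at 6.15 and 6.57 on the first and 3.80 and 3.89 on the second (naïve 6.84 to 7.46 and 9.55 to 10.79). On these arrays 92.3% and 99.9% of probes were marked well above background, against 74.6% on naïve replicate 3 and 42.1% to 54.3% on the other 24, and 22.6% of spots of the second were non-uniform. The part of array quality in these signals was not tested.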

How the results depend on the processing

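Called changes and differences kept their direction under every alternative and array left out. Over all single values, 488 kept direction and side of the threshold under other settings, 34 lost a call, 41 gained one and 7 changed sign, and with 1 array left out these were 434, 66, 11 and 11. The cause of these changes was not tested. Calls over all probes moved with the settings too, so the member counts below are not about the members alone. For CpG acute they ran from 108 without CpG acute replicate 2 to 5846 with slide as a random block (1598 in the main fit). For Poly(I:C) acute they ran from 183 without Poly(I:C) acute replicate 2 to 6744 without slide 3 (1713 in the main fit). For LPS acute, median scaling gave 3354 (7918 in the main fit). Called members numbered, with median scaling, 1 each for Poly(I:C), Pam3CSK4 and CpG acute against naïve, 1 for CpG and 1 for Poly(I:C) re-stimulated against acute, 1 for LPS and 1 for CpG re-stimulated against naïve, and 2 for differences in the acute level. Scaled on the 75th percentile they were 1 for Poly(I:C) acute and 1 each for CpG and Poly(I:C) re-stimulated against naïve. With normexp they were 4 for CpG and 2 for Pam3CSK4 re-stimulated against naïve. With no filter on dim probes they were 1 for CpG and 1 for Poly(I:C) acute, 1 each for LPS, CpG and Poly(I:C) re-stimulated against naïve, and 2 for differences in the re-stimulated level. In 1 fit of 9 groups they were 2 for Pam3CSK4 acute, 1 each for CpG and Poly(I:C) re-stimulated against acute and 2 for Pam3CSK4 re-stimulated against naïve, and with slide as a random block 2, 1, 1 and 3, with 1 for Pam3CSK4 re-stimulated against acute. With all 27 arrays they were 1 for LPS re-stimulated against naïve, and 1, 2 and 0 for differences in change, acute level and re-stimulated level. Without slide 3, an alternative chosen after seeing the data, they were 3 each for LPS, CpG and Pam3CSK4 acute (the last then a single array, assumed to vary like the others), 2 for Poly(I:C) re-stimulated against acute, 4 for LPS and 2 for Pam3CSK4 re-stimulated against naïve, and 7, 10 and 13 for differences.

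With the replicate block the members called were 1 for CpG acute and 1 for Poly(I:C) re-stimulated against acute. Il6st was called for LPS re-stimulated against naïve (-1.14, adjusted p = 0.0450). Same-numbered arrays of these groups correlated at 0.08, and only replicates 1 and 2 could be compared there. The other calls that the block changed are given above. Over all probes 6 were called with the block and 1497 without it for Pam3CSK4 re-stimulated against naïve. Changes of sign, none of them called, were, for Il6st, 0.060 for Poly(I:C) acute and 0.42 for Poly(I:C) re-stimulated against naïve with median scaling, for Osm -0.12 for Pam3CSK4 and -0.045 for Poly(I:C) acute on the 75th percentile, and with all 27 arrays Osm -1.04 for Pam3CSK4 acute, and Il6st -0.77 and 1.25 for LPS and Pam3CSK4 re-stimulated against acute.

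With 1 array left out, called members ranged from 2 to 3 for LPS acute, 1 to 2 for Poly(I:C), 0 to 1 for Pam3CSK4 and 1 to 3 for CpG acute. Against acute cells they ranged from 2 to 3 for LPS and 0 to 1 for CpG and for Poly(I:C) re-stimulated, and against naïve from 0 to 4 for LPS, 0 to 2 for Poly(I:C), 1 to 2 for Pam3CSK4 and 1 to 4 for CpG. Differences ranged from 1 to 4 in change, 2 to 5 in acute and 0 to 8 in re-stimulated level. Changes whose sign turned ranged, for Osm, from -0.046 to 0.33 after acute Pam3CSK4 and from -0.10 to 0.38 after acute Poly(I:C), for Il6 from -1.73 to 0.22 for Poly(I:C) re-stimulated against acute, and for Il6st from -0.038 to 0.55 for LPS and -0.31 to 0.54 for Poly(I:C) re-stimulated against acute, from -0.74 to 0.015 for acute Poly(I:C) and from -0.70 to 0.21 for Poly(I:C) re-stimulated against naïve. Calls over all probes ranged from 0 without LPS re-stimulated replicate 1 to 6461 for LPS re-stimulated against naïve, and from 0 without Poly(I:C) acute replicate 1 to 6566 for Poly(I:C) re-stimulated against acute. No other probe of a member exists on the array, so that alternative gave no value.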
